A study of Chlamydomonas reinhardtii with 9 samples.

Results

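The nuclear genes for the gamma subunit (CHLRE_06g259900v5) and the delta subunit (CHLRE_11g467569v5) of the chloroplast ATP synthase were 2 of the 71 probes on spotted arrays of the green alga Chlamydomonas reinhardtii. They were found by their spot numbers, 19 to 21 for gamma and 22 to 24 for delta, in a choice made with earlier results of these data known. Both passed the filter on missing values, and all 6 spots had a value on all 9 arrays. Total RNA of the nonphotosynthetic mutant mcd1-1 was set against the wild type P17 on 3 arrays, and that of the nonphotosynthetic mutant mcd1-2 against the same wild type on another 3. On a further 3 arrays RNA of mcd2-1, a photosynthetic suppressor, was set against that of mcd1-2. The labels call these strains petD mutants. They do not say whether the suppressor also carries the mcd1-2 allele, how the cells were grown, or whether the arrays of a comparison came from separate cultures. Where the arrays hold only repeat measurements, the p-values cover technical spread alone.

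The chloroplast ATP synthase uses the proton gradient built by photosynthetic electron transport to make ATP. Its membrane part conducts protons and turns the central stalk, of which the gamma subunit is the main shaft, inside a ring of alpha and beta subunits. In chloroplasts the gamma subunit also carries a redox switch that holds the enzyme inactive in the dark. The delta subunit sits on top of the ring and joins it to the outer stalk, which keeps it from turning. In Chlamydomonas gamma and delta are made in the cytosol from nuclear genes and imported, while alpha and beta are encoded in the chloroplast. The petD gene, also in the chloroplast, encodes subunit IV of the cytochrome b6f complex, which pumps protons into the same gradient, and MCD1 is a nuclear gene needed for stable petD mRNA.

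Values are log ratios of the 2 channels, taken as log2 and averaged over the 3 spots of a probe, after subtraction of each array's median. The direction is taken as channel 1 over channel 2, which is likely from the labels but not given, and every higher would read lower if it ran the other way. Over the 71 probes the suppressor arrays correlated at -0.314 (replicates 1 and 2), -0.109 (1 and 3) and 0.125 (2 and 3), against 0.541 to 0.898 within mcd1-1 and 0.552 to 0.725 within mcd1-2. No pair of suppressor arrays was thus closely alike, and the direction of that comparison is unsettled. Its results are therefore also given with the sign of replicate 1 turned. This turn was chosen from these same values, and the labels do not say whether dyes were swapped. Values with the sign turned are thus shown as an alternative reading only. Spots repeated closely. The SD over the 3 spots of an array had a median of 0.0269 for gamma and 0.0618 for delta, with highest values of 0.169 and 0.168. Arrays differed much more than spots, as the SDs between arrays given below show.

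In both nonphotosynthetic mutants the gamma mRNA stood below the wild type on all arrays, by about 1.5-fold on average, and the delta mRNA stood below it on 4 of 6. Neither difference passed the threshold in the fit over all probes (limma, adjusted p under 0.05). Of the probes with a value on each of these 6 arrays, 7.58% lay below 0 on all of them. In the suppressor, gamma stood above mcd1-2 on 2 of 3 arrays, at 1.04 and 1.05, and below it on replicate 1, at -0.60. The mean of delta was close to mcd1-2, with arrays on both sides of 0. No comparison gave a call for either subunit in that fit, though weights for array quality gave calls for gamma, described below.

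**Figure D1:**
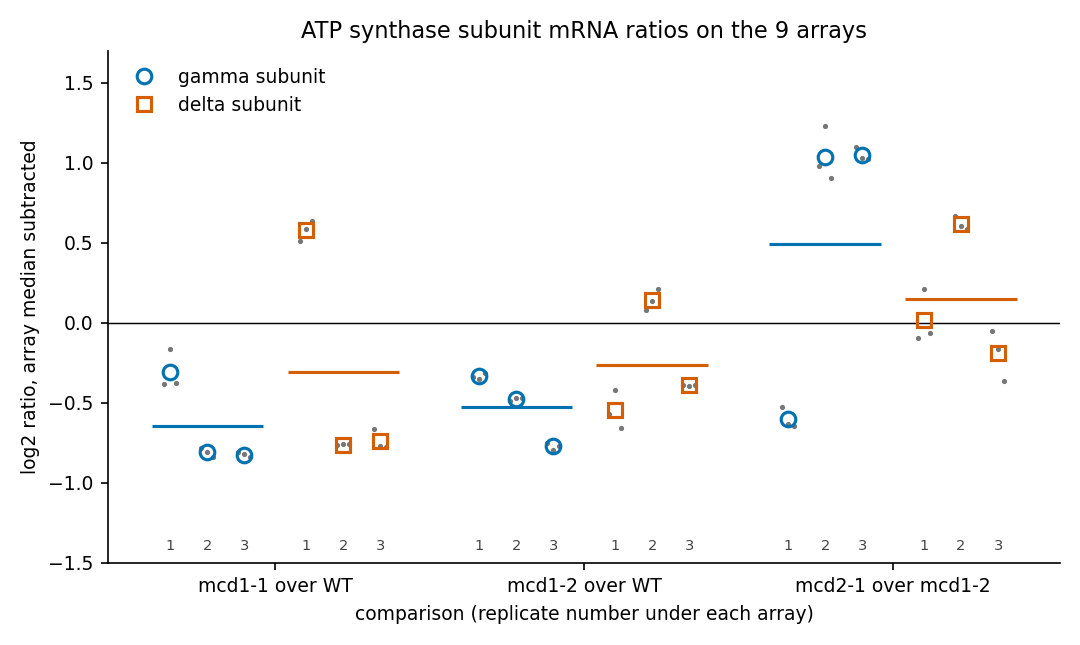
Log2 ratio of the gamma (circles) and delta (squares) subunit mRNA on each array, array median subtracted, for mcd1-1 over WT, mcd1-2 over WT and mcd2-1 over mcd1-2. Grey dots are the 3 spots of an array and horizontal lines are group means. All 6 gamma circles of the mutants lie below 0, between -0.82 and -0.31, and the suppressor's gamma circles lie at -0.60, 1.04 and 1.05.

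The first comparison asked which RNAs differ in mcd1-1. Gamma, the rotating shaft of the enzyme, had log2 ratios of -0.31, -0.81 and -0.82 on replicates 1, 2 and 3. All 3 arrays lay below 0, with replicate 1 nearest to it. The mean was -0.65 ± 0.29 (SD, n = 3), number 5 from the lowest of the 71 probes. This puts mcd1-1 1.56-fold below wild type. The 95% interval ran from 2.72-fold lower to 1.11-fold higher (limma adjusted p = 0.581). Delta, the link to the outer stalk, had log2 ratios of 0.58, -0.76 and -0.74. Replicate 1 lay above 0 while the other two lay almost where gamma did. The mean was -0.31 ± 0.77 (SD, n = 3), with an interval from -1.09 to 0.48 (limma adjusted p = 0.794). Ranked from the lowest SD between the mcd1-1 arrays, gamma was number 25 and delta number 63 of the 71 probes.

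With limma 0 of the 2 subunits passed the threshold in mcd1-1, where 1.41% of all probes did, and 0 of 2 had an unadjusted p under 0.05, where 8.45% of all probes did. Being below 0 on all 3 arrays, as gamma was, held for 22.4% of the probes with a value on each. One alternative gave a call. With weights for array quality, which were 2.26 for replicates 2 and 3 and 0.928 for replicate 1, gamma fell by 0.73 on the log2 scale (limma adjusted p = 0.0454, between 0.0454 and 0.98 over all its alternatives), beside calls for 14.1% of all probes.

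In mcd1-2 the same question gave log2 ratios of -0.33, -0.48 and -0.77 for gamma. All 3 arrays lay below 0 and within the range seen in mcd1-1. The mean was -0.53 ± 0.22 (SD, n = 3), which puts mcd1-2 1.44-fold below wild type. The 95% interval ran from 2.50-fold lower to 1.21-fold higher (limma adjusted p = 0.724). Gamma was number 8 from the lowest of the 71 probes. Delta had log2 ratios of -0.55, 0.14 and -0.39, so replicate 2 alone lay above 0. Its mean was -0.26 ± 0.36 (SD, n = 3), with an interval from -1.05 to 0.52 (limma adjusted p = 0.857). Of the 2 subunits 0 passed the threshold with limma, where 5.63% of all probes did, and 0 of 2 had an unadjusted p under 0.05, where 11.3% of all probes did. Being below 0 on all 3 arrays held for 16.7% of the probes with a value on each.

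The 2 mutants overlapped for both subunits. The difference, mcd1-2 minus mcd1-1, was 0.12 for gamma, with a 95% interval from -1.01 to 1.25, and 0.04 for delta, with an interval from -1.07 to 1.15 (limma adjusted p = 0.997 for both). By limma 0 of 2 passed, where 1.41% of all probes did, and 0 of 2 had an unadjusted p under 0.05, where 2.82% of all probes did. Differences of up to about 2.37-fold for gamma and 2.22-fold for delta thus lie within the intervals. Of the probes measured on every array, 16.7% had groups that do not overlap, and neither subunit was among them.

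Since both mutants were measured against the same wild type, their mean was also tested. For gamma it was -0.59, with a 95% interval from -1.15 to -0.02, below 0 on 6 of 6 arrays. The unadjusted p was 0.0422 and the limma adjusted p was 0.272. It was number 4 from the lowest of 71 probes. An exact two-sided sign-flip permutation test over the 6 arrays, added after the values were seen, gave p = 0.0312, the smallest it can give. After adjustment for the 66 probes measured on all 6 arrays that p was 0.172, and 18.2% of them had an exact p under 0.05. Being below 0 on all 6 arrays held for 7.58% of those probes.

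For delta the mean over both mutants was -0.29, with an interval from -0.84 to 0.27, below 0 on 4 of 6 arrays (limma adjusted p = 0.601, and p = 0.25 in the exact permutation test). With limma 0 of the 2 subunits passed the adjusted threshold, where 7.04% of all probes did, and 1 of 2 had an unadjusted p under 0.05, where 15.5% of all probes did. With array weights gamma fell by 0.61 (limma adjusted p = 0.0331, between 0.0331 and 0.639 over all its alternatives), beside calls for 16.9% of all probes. Arrays of 2 mutants are not replicates of one group. They share the wild-type strain, and may share its RNA preparation and the order of the channels. The parts of these in the ratio cannot be told apart from the mutants'. In total RNA, fewer cells with an mRNA and less of it per cell cannot be told apart either.

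**Figure D2:**
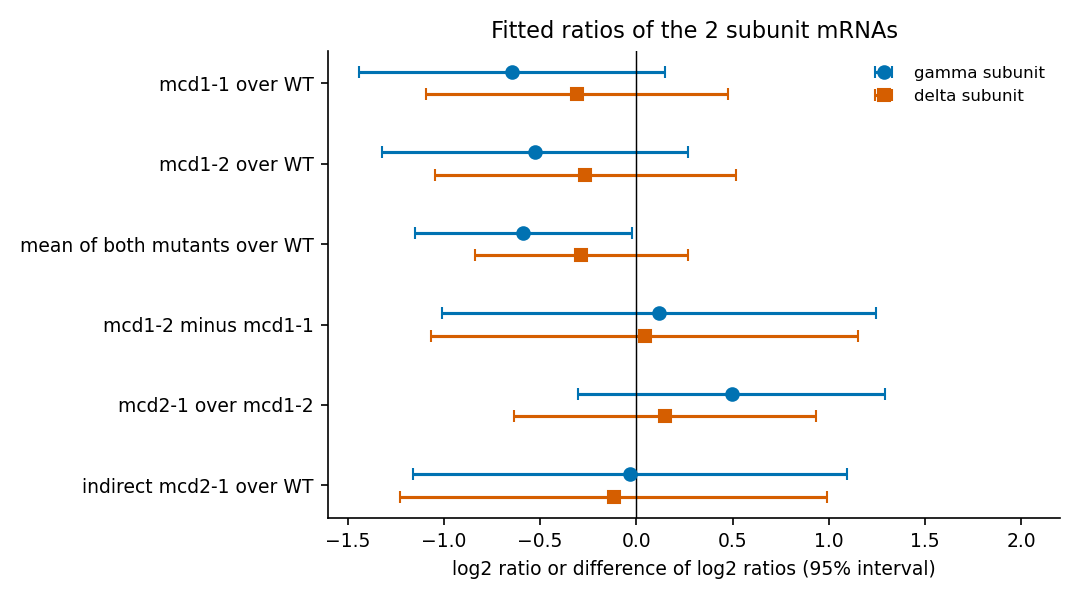
Fitted log2 ratio of the gamma (circles) and delta (squares) subunit mRNA in each comparison, or difference of log2 ratios for mcd1-2 minus mcd1-1, with 95% intervals of the moderated fit over 9 arrays. Only the interval of gamma for the mean of both mutants, from -1.15 to -0.02, leaves out 0, and its adjusted p of 0.272 did not pass the threshold.

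The third comparison asked what differs in the photosynthetic suppressor. Gamma had log2 ratios of -0.60, 1.04 and 1.05 in mcd2-1 over mcd1-2. Replicates 2 and 3 lay close together above 0, and replicate 1 lay below it. The mean was 0.50 ± 0.95 (SD, n = 3). This puts the suppressor 1.41-fold above mcd1-2, and the 95% interval ran from 1.23-fold lower to 2.45-fold higher (limma adjusted p = 0.698). Gamma was the 12th highest of the 71 probes. With the sign of replicate 1 turned the 3 values lay between 0.60 and 1.05, with a mean of 0.90 ± 0.26 (SD, n = 3, limma adjusted p = 0.0835), the 6th highest. Being above 0 on all 3 arrays in this way held for 15.2% of the probes with a value on each. Without replicate 1 the mean was 1.04 (limma adjusted p = 0.109), without replicate 2 it was 0.22 (0.885) and without replicate 3 also 0.22 (0.861).

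Delta had log2 ratios of 0.02, 0.62 and -0.19 in the suppressor over mcd1-2, on both sides of 0. Its mean was 0.15 ± 0.42 (SD, n = 3), with an interval from 1.55-fold lower to 1.91-fold higher (limma adjusted p = 0.882). With the sign of replicate 1 turned it was 0.14 (limma adjusted p = 0.778). Without replicate 2 it was -0.09. With limma 0 of the 2 subunits passed the threshold, where 1.41% of all probes did, and 0 of 2 had an unadjusted p under 0.05, where 8.45% of all probes did. With the sign of replicate 1 turned, the limma unadjusted p of gamma was 0.00705, but 21.1% of all probes then had an unadjusted p under 0.05. After adjustment 0 of the 2 subunits passed there, where 4.23% of all probes did.

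Adding the log2 ratios of mcd2-1 over mcd1-2 and of mcd1-2 over wild type, which share the strain mcd1-2, gives the suppressor indirectly over the wild type. This ratio was -0.03 for gamma, with an interval from -1.16 to 1.10, and -0.12 for delta, with an interval from -1.23 to 0.99 (limma adjusted p = 0.999 for both). With limma 0 of 2 passed, where 1.41% of all probes did, and 0 of 2 had an unadjusted p under 0.05, where 7.04% of all probes did. With the sign of suppressor replicate 1 turned, gamma stood at 0.37 and delta at -0.13. A difference of about 2-fold between suppressor and wild type in either direction lies within both intervals.

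The 3 arrays on which the same 4 other probes had no value (mcd1-1 replicate 2, mcd1-2 replicate 3 and suppressor replicate 3) were set apart as a possible batch. For gamma the mcd1-1 ratio was -0.81 on that array and -0.57 as the mean of the others, the mcd1-2 ratio was -0.77 and -0.40, and the suppressor ratio was 1.05 and 0.22. For delta the corresponding pairs were -0.76 and -0.08, -0.39 and -0.20, and -0.19 and 0.32. The suppressor mean of 0.22 for gamma is that of -0.60 and 1.04, on opposite sides of 0, and the delta ratio in the suppressor differed in sign between the sets. With the division as a block, gamma stood at -0.63 in mcd1-1, -0.51 in mcd1-2 and 0.51 in the suppressor (limma adjusted p of 0.571, 0.714 and 0.742). Delta then stood at -0.38, -0.34 and 0.07 (limma adjusted p of 0.732, 0.831 and 0.958), beside -0.31, -0.26 and 0.15 without the block.

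Whether the 2 subunit mRNAs moved unequally was tested within arrays, where the centring cancels. Gamma minus delta was -0.89, -0.05 and -0.08 on replicates 1, 2 and 3 of mcd1-1, a mean of -0.34 ± 0.47 (SD, n = 3). Replicate 1 set most of it, and without that array the mean was -0.07. In mcd1-2 the values were 0.21, -0.62 and -0.38, with a mean of -0.26 ± 0.43 (SD, n = 3), and of -0.08 without replicate 2. Gamma was thus the lower of the pair on 5 of 6 mutant arrays. These 6 arrays come from 2 mutants and are not replicates of a single group. Over them the difference was -0.30, from -0.89 to 0.21 (exact two-sided sign-flip permutation test, p = 0.156). In the suppressor it was 0.35 ± 0.93 (SD, n = 3), with values of -0.62, 0.42 and 1.24, and 0.76 with the sign of replicate 1 turned. With 3 arrays this exact test cannot go below 0.25. An unequal change of the 2 mRNAs was therefore not detected with these arrays.

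**Figure D3:**
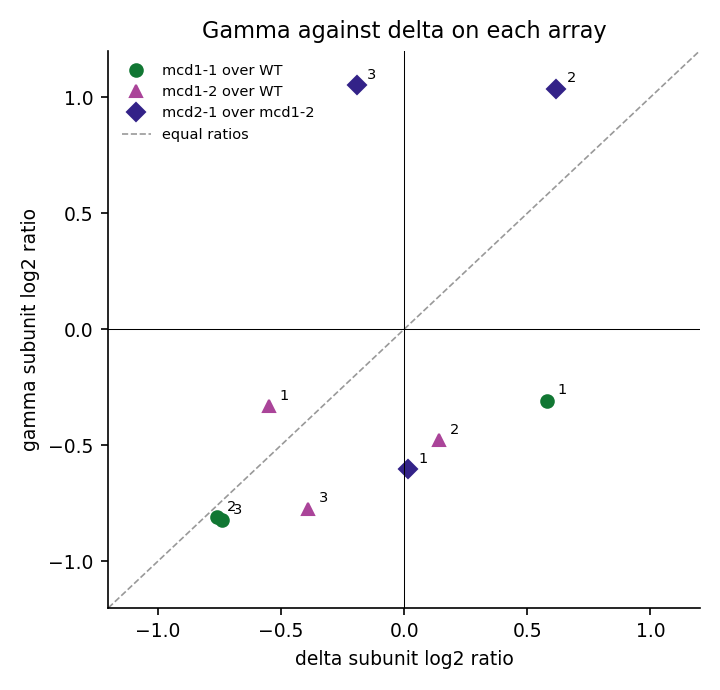
Log2 ratio of gamma (vertical) against delta (horizontal) on each of the 9 arrays, with the replicate number beside each point and a dashed line where both are equal. Replicates 2 and 3 of mcd1-1 lie almost on the line, and suppressor replicate 3 lies farthest above it, with gamma 1.24 above delta.

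Across the 9 arrays gamma and delta correlated with Pearson's r of 0.516 (0.548 with suppressor replicate 1 turned in sign), and with 0.697 over the 6 mutant arrays. Delta was the 12th most similar to gamma of 65 probes with enough values, and gamma the 9th most similar to delta. These correlations are descriptions only: arrays share the wild-type or mcd1-2 strain, and probes share each array's centring. The probe most like gamma was that of spots 97 to 99, unnamed in the annotation, with r = 0.806 (0.974 with the sign turned, 0.746 over the mutant arrays). The group means of that probe were -5.34 in mcd1-1, -4.79 in mcd1-2 and 1.92 in the suppressor. Those of gamma had the same signs at a much smaller size. On suppressor replicate 1, with its sign not turned, gamma lay at -0.60 and that probe above 0. Next came CHLRE_09g396213v5, the gene of the oxygen-evolving complex protein PsbO, with r = 0.759 (0.809 with the sign turned). The last was the unnamed probe of spots 121 to 123, with r = 0.722 over all arrays and -0.379 over the mutant arrays. With the sign turned it ranked 8th (0.660), and the unnamed spots 160 to 162 took its place (0.770).

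The probes most like delta were CHLRE_16g671400v5 (r = 0.786), the unnamed spots 157 to 159 (0.693) and CHLRE_03g169550v5 (0.674), one of the alternative oxidase genes, whose enzyme passes electrons to oxygen in the mitochondrion. Over the mutant arrays these values were 0.764, 0.721 and 0.907. With the sign of suppressor replicate 1 turned they were 0.833, 0.775 and 0.831. The same 3 probes were the closest over all arrays with and without that change of sign.

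The annotation names 9 other nuclear loci. For 2 of them no function is given here, and no other known gene of the ATP synthase was identified among the rest. Their mean over both mutants had a median of -0.12 and lay below 0 for 7 of 9, from -0.56 to 0.11, beside 35 of 71 for all probes, whose median was 0.0043. The 5 photosynthesis genes among them (plastocyanin, which carries electrons from cytochrome b6f to photosystem I, the photosystem I subunits PsaD and PsaF, and the oxygen-evolving proteins PsbO and PsbP) lay below 0 for 5 of 5, with a median of -0.12. Of these 5 genes 0 passed the limma threshold there, where 7.04% of all probes did, and 0 of 5 had an unadjusted p under 0.05, where 15.5% of all probes did. PsbO (-0.05) and PsaF (-0.01) lay close to 0. PsbO, PsaD and PsaF were each below 0 on only 3 of 6 mutant arrays, and plastocyanin on 4 of 6. CHLRE_07g326150v5, one of the loci with no function given, stood at -0.56 (limma unadjusted p = 0.0407, adjusted p = 0.272), nearly the same as gamma. It was named after its values were seen. The 2 alternative oxidase genes stood at 0.11 and 0.10. Counts differed between the mutants. In mcd1-1 alone, 9 of the 9 loci lay below 0, as both subunits did, from -0.45 to -0.01, beside 36 of 71 for all probes. In mcd1-2, 5 of 9 did, from -0.74 to 0.33, beside 34 of 71. The alternative oxidase genes stood at -0.01 and -0.14 in mcd1-1 and at 0.24 and 0.33 in mcd1-2. The photosynthesis genes lay below 0 for 5 of 5 in mcd1-1 and 3 of 5 in mcd1-2. Of these 9 loci PsbP alone (CHLRE_12g550850v5, mean -0.38) was, like gamma, below 0 on 6 of 6 mutant arrays. The same held for 7.58% of all probes with a value on each of these arrays. In the suppressor over mcd1-2, 4 of the 5 photosynthesis genes lay below 0, from -1.38 to 0.30, beside 37 of 71 for all probes. The difference from the ATP synthase subunits was not tested. The lowest of these, plastocyanin, includes a single spot at -13.4. With the sign of replicate 1 turned, 4 of 5 also lay below 0, beside 38 of 71 for all probes.

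When arrays were centred on the median of the other 9 loci, the mean over both mutants was -0.43 for gamma and -0.13 for delta (limma adjusted p of 0.494 and 0.84). Relative to these nuclear mRNAs, delta in mcd1-1 stood at -0.10.

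**Figure D4:**
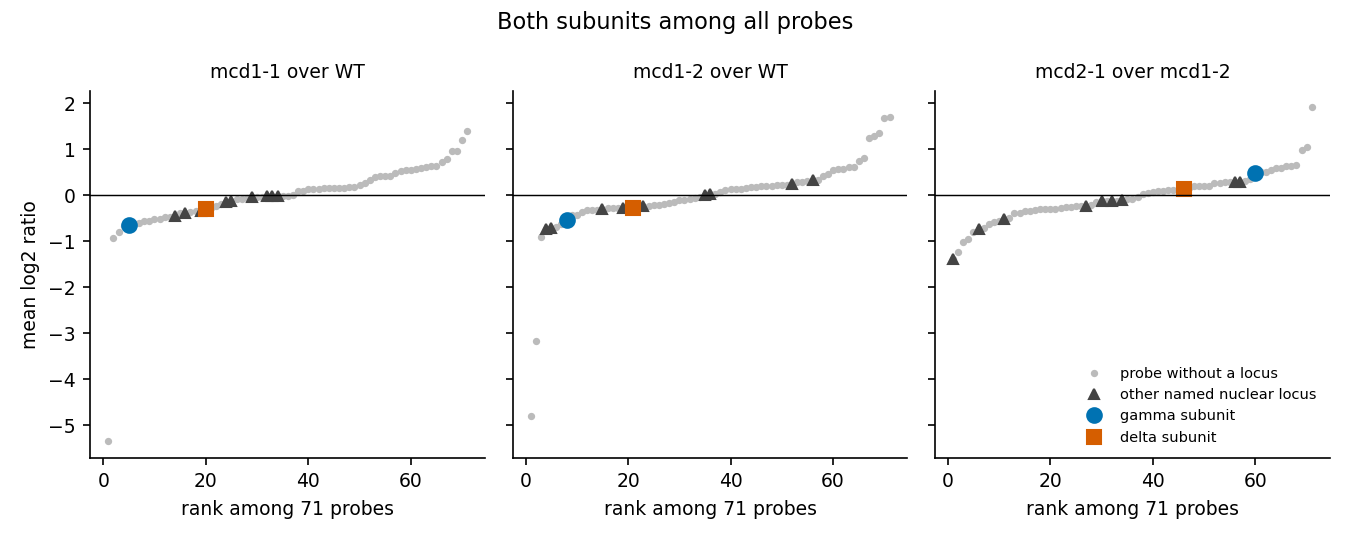
Mean log2 ratio of all 71 probes, ranked from lowest to highest, in mcd1-1 over WT, mcd1-2 over WT and mcd2-1 over mcd1-2, with the gamma subunit (circle), the delta subunit (square) and the other 9 named nuclear loci (triangles) marked. Gamma is number 5 and number 8 from the lowest in the mutants and 12th highest in the suppressor, and delta lies nearer to the middle in each.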

How the data were processed

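The authors deposited log ratios of the 2 channels per spot. The base is not given and was taken as log2 because the lowest deposited value, -13.4, lies beyond 11.1, the largest natural log ratio of 16-bit intensities. That value is 1 of 2 spots below -10, which may be defective, so the base and every fold change rest on them. The sources used here give no scanner, dyes, background correction, normalization or spot intensities, so signal over background is unknown and the number of arrays limits the precision. Spots were averaged in sets of 3 (71 probes) and each array's median was subtracted. Probes needed a value on at least 2 arrays of a group. All 11 named loci matched RefSeq's table. Subunit names and functions are general background.

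With limma 3.58.1 (R 4.3.3), lmFit and eBayes fitted a mean per group over 9 arrays (two-sided, Benjamini-Hochberg over 71 probes, threshold 0.05). The fit was tested on simulated data with independent noise and with shifts larger than the fitted means of both subunits. That check does not show whether differences of their size would be detected. Gamma minus delta was tested by sign flips (Python 3.11.15). The text names both subunits, and for each the 3 probes with the highest Pearson correlation over at least 8 arrays. The subunits and lists were chosen with earlier results of these data known. Alternatives covered centring, spot summary, spots below -10, arrays in the fit, scaling, weights, moderation, blocks, sign and single arrays. Same-numbered arrays of different groups deviated with correlations from -0.375 to 0.379, so the numbers were not taken as pairs. No genome build is named in the files, and no coordinates are given.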

Additional observations from a re-analysis of the deposited data

How the results depend on the processing

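Over 16 results and their alternatives, 251 of 270 values kept their direction and their side of the threshold. Much of this count was fixed in advance and does not measure robustness. Robust moderation, the replicate block and leaving out an array of a group not in the comparison cannot change the value itself. The exact tests of gamma minus delta on 3 arrays cannot pass the threshold. Array weights alone gave calls, for gamma in mcd1-1 (-0.73, limma adjusted p = 0.0454) and in the mean of both mutants (-0.61, 0.0331). No such call was made with the replicate block, where gamma stood at -0.65 in mcd1-1, -0.53 in mcd1-2 and 0.50 in the suppressor (limma adjusted p of 0.761, 0.895 and 0.839). That block changed no call for either subunit. The indirect suppressor ratio of gamma changed sign without centring (0.26), centred on the other nuclear loci (0.16), with array weights (0.23) and when suppressor replicate 1 was turned in sign (0.37), and that of delta without centring (0.17) and centred on those loci (0.0802). Delta also changed sign in mcd1-2 minus mcd1-1 centred on those loci (-0.0635) and in the suppressor with the median of neighbouring probes subtracted (-0.20). Leaving out single arrays gave -0.31 to 0.52 for the indirect ratio of gamma, above 0 without mcd1-2 replicate 3 (0.0909) or suppressor replicate 1. It gave -0.35 to 0.0534 for that of delta, above 0 without mcd1-2 replicate 1 (0.0248) or suppressor replicate 3. Delta in mcd1-2 minus mcd1-1 lay between -0.18 and 0.49, below 0 without mcd1-1 replicate 2 or 3 (-0.17) or mcd1-2 replicate 2 (-0.16). In the suppressor, gamma lay between 0.22 and 1.04, delta between -0.0870 (without replicate 2) and 0.32, and gamma minus delta between -0.10 (without replicate 3) and 0.83. None of these values had passed the threshold, and the causes were not tested. With only the 6 mutant arrays in the fit the limma adjusted p of gamma over both mutants was 0.0502.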
